A study of Mus musculus with 568 samples.

Results

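Genes of the Klf and Sp families of zinc finger transcription factors were followed from embryonic stem cells (ESCs) to germ cells made in culture: Klf9, Klf3, Klf6, Klf10, Klf13, Klf8, Sp5 and Sp8, 8 of 16335 genes in the bulk table. Klf9 and Sp8 were chosen on their normalized counts in this table, as genes that differ most between the 2 groups of primordial germ cell-like cells (PGCLCs), and the other 6 as relatives of these, so the values of the PGCLC groups against each other are given below as a description, with no test. Total RNA of 16 bulk libraries, 4 in each of 4 groups, was sequenced: ESCs, epiblast-like cells (EpiLCs), XGFP+ PGCLCs and XGFP- PGCLCs. A further 552 wells, 10 of them empty, held single cells from reconstituted ovaries (rOvaries) and ESCs.

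All groups came from XRep, a hybrid female mouse ESC line with 1 X chromosome of 129S1/SvImJ origin (X mus) and 1 of CAST/EiJ origin (X cas). In every group X mus carries a truncation of Tsix, which directs X-inactivation to that chromosome, and a GFP reporter in Hprt, while X cas carries tdTomato in Hprt. Every cell also holds rtTA in Rosa26 and doxycycline-responsive transgenes for Prdm1 (Blimp1), Prdm14 and Tfap2c. ESCs were kept in serum and LIF with a last day in 2i and LIF, EpiLCs were collected after 2 steps of 48 h, and PGCLCs after a further 5 days with 1.5 µg/ml doxycycline, where the transgenes stand in for cytokines. PGCLCs were sorted as SSEA1+ CD61+ cells and then by GFP. XGFP+ and XGFP- thus state whether the reporter on X mus was seen, not whether every gene of that chromosome was on or off. ESCs and EpiLCs were not split by GFP. The study's text gives 2 clones with 2 technical replicates each, while a figure legend gives 4 biological replicates. The labels do not give the clone of a library. Libraries 1 to 4 of a group may thus stand for 2 independent units, and the spread between libraries can be smaller than that between cultures. The limma and permutation tests below treat the 4 libraries as independent, except where replicate numbers are used as pairs or as a block.

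Klf and Sp proteins share a carboxy-terminal DNA-binding domain of 3 zinc fingers that reads GC-rich sequences, the GC box and the CACCC box. They differ in the amino-terminal part, through which some recruit repressors: Klf3 and Klf8 bind CtBP, and Klf9, Klf10 and Klf13 bind Sin3a. Klf9 is a target of thyroid hormone and glucocorticoid receptors, Klf10 is an early gene of TGF-beta signalling, Klf6 is an activator known as a fast-responding gene, and Sp5 and Sp8 act downstream of WNT and beta-catenin. The best known Klf genes of ESCs are Klf2, Klf4 and Klf5, which maintain naive pluripotency.

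Promoter windows of Klf9, Sp8 and Sp5 are shown because Klf9 and Sp8 moved in opposite directions and because Sp5 and Sp8 are known WNT targets. Each window runs from 250 bases before to 50 bases after a RefSeq start site (GRCm38.p6), on the plus strand for these 3 genes, 5′ to 3′. Capitals mark GGGCGG, the letters of a GC box, and the letters CACCC of the box of that name. They also mark CTTTGA, the core read by TCF and LEF factors of the WNT pathway. Each was searched on both strands.
Klf9, chr19:23140976-23141275: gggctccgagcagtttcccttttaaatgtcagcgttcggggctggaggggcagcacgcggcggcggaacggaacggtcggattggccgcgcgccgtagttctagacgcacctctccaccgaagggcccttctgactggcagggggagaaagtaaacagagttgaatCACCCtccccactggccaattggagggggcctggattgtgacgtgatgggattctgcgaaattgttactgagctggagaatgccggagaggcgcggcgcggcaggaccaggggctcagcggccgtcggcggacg
Sp8 start 1, chr12:118846079-118846378: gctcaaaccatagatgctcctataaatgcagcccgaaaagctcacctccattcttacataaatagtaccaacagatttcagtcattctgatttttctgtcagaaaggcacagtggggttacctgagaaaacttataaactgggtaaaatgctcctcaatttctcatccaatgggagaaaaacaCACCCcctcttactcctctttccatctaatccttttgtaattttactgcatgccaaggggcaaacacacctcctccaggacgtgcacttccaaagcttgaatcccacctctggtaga
Sp8 start 2, chr12:118846983-118847282: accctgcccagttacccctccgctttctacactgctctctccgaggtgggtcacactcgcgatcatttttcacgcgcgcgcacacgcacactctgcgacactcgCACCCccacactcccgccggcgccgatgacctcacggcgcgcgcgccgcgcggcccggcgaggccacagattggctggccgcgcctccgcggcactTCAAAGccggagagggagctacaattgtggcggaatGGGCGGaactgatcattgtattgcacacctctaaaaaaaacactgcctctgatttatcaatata
Sp8 start 3, chr12:118847309-118847608: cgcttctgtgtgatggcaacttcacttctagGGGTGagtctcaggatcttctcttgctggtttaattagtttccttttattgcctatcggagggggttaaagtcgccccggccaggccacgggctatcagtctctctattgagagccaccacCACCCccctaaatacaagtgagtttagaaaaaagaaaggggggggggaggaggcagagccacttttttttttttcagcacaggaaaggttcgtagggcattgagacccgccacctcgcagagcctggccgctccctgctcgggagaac
Sp5, chr2:70474673-70474972: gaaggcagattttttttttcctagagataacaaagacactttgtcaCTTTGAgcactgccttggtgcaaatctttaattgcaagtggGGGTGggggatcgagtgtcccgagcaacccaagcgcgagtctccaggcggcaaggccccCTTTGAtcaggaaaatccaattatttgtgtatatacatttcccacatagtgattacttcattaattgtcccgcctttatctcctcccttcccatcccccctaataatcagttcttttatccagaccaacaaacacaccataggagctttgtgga
The Klf9 window held 1 CACCC and neither other motif, at 63.3% G and C. The second Sp8 window was the only 1 of the 3 with GGGCGG, and also held CTTTGA. The Sp5 window held CTTTGA at 2 positions, with no GGGCGG, at 45% G and C. Windows were matched for 7 members, all but Klf10, and gave 10 windows in all, of which 6 held GGGCGG, 9 CACCC and 3 CTTTGA. Of the 32851 windows of all genes, 35.7%, 57.5% and 16% held them. The Klf3 window held the most GC boxes of the members, 6, of which 1 match overlapped another motif. These are counts of letters in 1 window per start and say nothing of binding.

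Klf9, on chromosome 19 (23141226 to 23168134, plus strand), was highest in ESCs, lower in EpiLCs, lower again in XGFP+ PGCLCs and lowest in XGFP- PGCLCs. Its normalized read counts were 7090.0, 6800.2, 7829 and 8050.0 in ESC libraries 1 to 4 and 3671, 3204, 3860.0 and 3716 in EpiLCs. In XGFP+ PGCLCs they were 1347, 1237, 705 and 803, and in XGFP- PGCLCs 33.8, 34.5, 24.0 and 40.2. No library of a group overlapped with a library of another, and the mean of XGFP+ PGCLCs was 30.9 times that of XGFP- PGCLCs. The EpiLC libraries were lower than the ESC libraries by 1.04 on the log2 scale (log2 fold change -1.04 ± 0.17 SE, limma FDR 3.06e-05), a step that the choice of Klf9 did not use. Against EpiLCs the log2 fold change was -1.87 ± 0.17 in XGFP+ and -6.74 ± 0.17 in XGFP- PGCLCs, and between the PGCLC groups -4.88 ± 0.17, all given without a test.

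Sp8, on chromosome 12 (118846329 to 118852576, plus strand), is a factor of limb outgrowth and forebrain patterning. It was high in EpiLCs and XGFP- PGCLCs and low in ESCs and XGFP+ PGCLCs. The counts were 29.2, 23.7, 19.98 and 26.02 in ESCs and 284, 360.0, 376 and 530.3 in EpiLCs. They were 29.9, 25.03, 16.3 and 16.1 in XGFP+ PGCLCs, and 465, 479, 284 and 303 in XGFP- PGCLCs. ESC and XGFP+ libraries overlapped, as did EpiLC and XGFP- libraries, while the low and the high groups lay apart. From ESCs to EpiLCs Sp8 rose by 3.89 ± 0.24 (log2, SE, limma FDR 4.63e-11). Without a test, XGFP- PGCLCs differed from EpiLCs by -0.02 ± 0.24, XGFP+ PGCLCs from ESCs by -0.21 ± 0.24, and the PGCLC groups from each other by 4.08 ± 0.24.

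Sp5, on chromosome 2 (70474923 to 70477729, plus strand), is the closest relative of Sp8 here and a direct target of beta-catenin. Its counts were 310, 236, 292 and 166 in ESCs and 162, 186, 289 and 388 in EpiLCs. They were 66.2, 62.6, 21.1 and 19.7 in XGFP+ PGCLCs and 148, 105.7, 54.8 and 57.7 in XGFP- PGCLCs. ESC and EpiLC libraries were interleaved, and every PGCLC library was below every ESC and EpiLC library. In both PGCLC groups libraries 1 and 2 were above libraries 3 and 4 for Sp5 and for Sp8. The PGCLC groups overlapped for Sp5, with a log2 difference of 1.19 ± 0.40 that is given as a description.

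**Figure D1:**
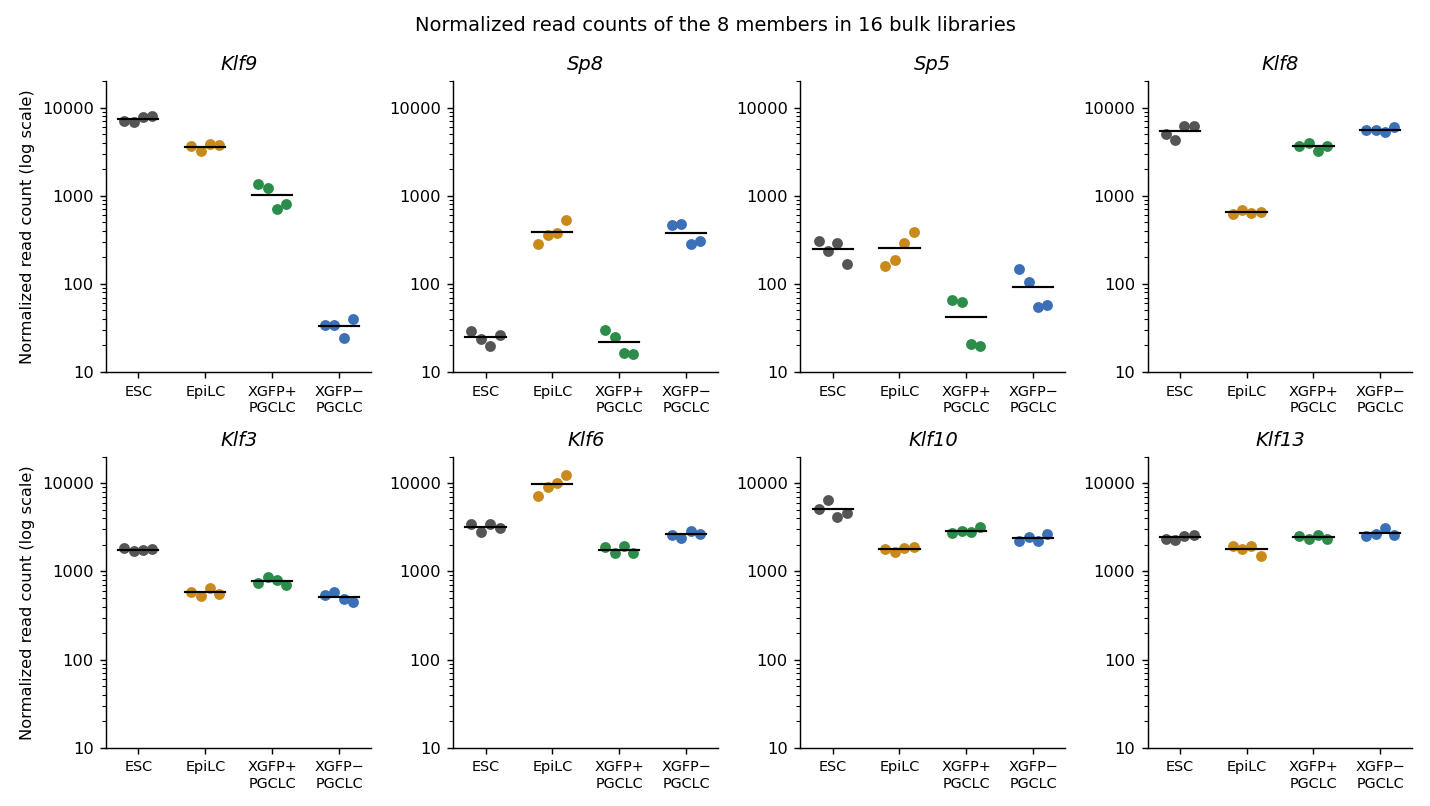
Normalized read counts (log axis) of the 8 genes, with a panel for each gene, a point for each of the 4 libraries of a group in the order 1 to 4, and a line at the group mean. Klf9 steps down from a mean of 7442 in ESCs to 33.1 in XGFP- PGCLCs, Sp8 is low in ESCs and XGFP+ PGCLCs and high in the other groups, and Klf8 is low in EpiLCs alone.

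Klf8, on the X chromosome (153237466 to 153396132, plus strand), a repressor with a CtBP-binding motif, was low in EpiLCs and high in the other 3 groups. Its counts were 4954, 4287, 6223 and 6257 in ESCs and 621, 684, 629 and 648 in EpiLCs. They were 3688, 3948, 3208 and 3668 in XGFP+ PGCLCs and 5621, 5569.8, 5269.7 and 5960.5 in XGFP- PGCLCs. The EpiLC libraries lay apart from all others, every XGFP- library was above every XGFP+ library, and ESC libraries overlapped with XGFP- libraries. Klf6, on chromosome 13 (5861482 to 5870394, plus strand), had the opposite shape: 3429, 2796, 3408 and 3122 in ESCs, 7106, 9140.2, 9992 and 12555 in EpiLCs, and 1895, 1632, 1956 and 1605 in the XGFP+ group, with 2621, 2406, 2857 and 2639 in the XGFP- group. Its EpiLC libraries were the highest 4 of the 16, and its XGFP+ libraries the lowest 4.

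The remaining members, Klf3, Klf10 and Klf13, are known mainly as repressors and spanned smaller ranges. Klf3, on chromosome 5 (64803388 to 64832901, plus strand), had a mean normalized count of 1772 ± 62.7 (SD, n = 4) in ESCs and 581 ± 51.3 in EpiLCs, and PGCLCs had 776 ± 75.6 where XGFP+ and 515 ± 54.4 where XGFP-. Klf10, on chromosome 15 (38291463 to 38300706, minus strand), had 5099.9 ± 1036 in ESCs and 1794 ± 83.9 in EpiLCs, and PGCLCs had 2899 ± 223 where XGFP+ and 2372 ± 224 where XGFP-. Klf13, on chromosome 7 (63886351 to 63938915, minus strand), stayed between 1802 ± 204 in EpiLCs and 2740 ± 277 in XGFP- PGCLCs, with 2443 ± 164 in ESCs and 2452 ± 148 in XGFP+ PGCLCs. Neighbours in these orders overlapped between EpiLCs and XGFP- PGCLCs for Klf3, and between ESCs and each PGCLC group and between the PGCLC groups for Klf13. For Klf10 no neighbours overlapped, although the lowest XGFP+ library (2699.7) was close to the highest XGFP- library (2666). Klf3, Klf13 and Klf9 overlap other annotated genes, 2 each for Klf3 and Klf13 and 1, Mir1192, for Klf9, and the share of their reads that belongs to these was not tested.

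Per kilobase of exon, the order of the members turned over. In ESCs Klf9 had the highest level (mean normalized count per kilobase 1546 ± 123.2, SD), then Klf10 (1220.4) and Klf8 (1043), with Sp8 last (5.42). In EpiLCs Klf6 led (2209) with Klf9 next (750.3). XGFP+ PGCLCs had Klf8 (697) and Klf10 (694) in front, Klf9 after 4 other members (212) and Sp8 last (4.79). In XGFP- PGCLCs Klf8 (1077) led and Klf9 was last (6.88), below Sp8 (83.95) and Sp5 (43.6).

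The first comparison asked which members change when naive ESCs become EpiLCs, and no PGCLC library was compared, although all 16 libraries shared 1 estimate of the spread. With limma and a false discovery rate (FDR) below 0.001, 7 of 8 members were called, beside 47.8% of the 16281 genes tested. Fitted on the 8 ESC and EpiLC libraries alone, 6876 of all genes were called in place of 7788, and the same 7 members. Of the members 2 were higher and 5 lower in EpiLCs, and of all genes 24.9% were higher and 22.9% lower. Sp8 rose most, and Klf6 rose by 1.58 ± 0.12 (log2, SE, FDR 1.86e-09). Klf8 fell most, with a log2 fold change of -3.05 ± 0.10 (FDR 8.91e-15). Klf3 changed by -1.61 ± 0.09 (FDR 9.84e-12), Klf10 by -1.49 ± 0.10 (FDR 4.30e-10), and Klf13 by -0.44 ± 0.08 (FDR 0.000133). Sp5 was not called, at -0.02 with a 95% interval from -0.87 to 0.83. The members' median log2 fold change was -0.74, against 0.01 over all genes.

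From EpiLCs to XGFP+ PGCLCs, all 6 members tested were called, beside 57.3% of all genes: 4 rose and 2 fell, and over all genes 27.8% rose and 29.5% fell. Klf8 rose by 2.49 ± 0.10 (log2, SE, limma FDR 1.17e-13), Klf10 by 0.69 ± 0.10 (FDR 9.17e-06), Klf13 by 0.45 ± 0.08 (FDR 9.46e-05) and Klf3 by 0.42 ± 0.09 (FDR 0.000298). Sp5 changed by -2.69 ± 0.40 (FDR 7.90e-06) and Klf6 by -2.43 ± 0.12 (FDR 3.63e-12). The call of Klf3 was lost without XGFP+ library 2 (FDR 0.00174) or 3 (FDR 0.00119), or without EpiLC library 2 (FDR 0.00162) or 4 (FDR 0.00122), and when only the 8 libraries compared were fitted (FDR 0.00147).

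From EpiLCs to XGFP- PGCLCs, 3 of the 6 were called, 2 higher and 1 lower, beside 61.9% of all genes (29.9% higher and 31.9% lower). Klf8 rose by 3.12 ± 0.10 (log2, SE, limma FDR 4.16e-15) and Klf13 by 0.61 ± 0.08 (FDR 2.68e-06), while Klf6 changed by -1.85 ± 0.12 (FDR 1.11e-10). Sp5, at -1.51 ± 0.40 (FDR 0.00237), Klf10, at 0.40 ± 0.10 (FDR 0.00203), and Klf3, at -0.17 ± 0.09 (FDR 0.0781), did not pass. Sp5 passed without XGFP- library 1 (FDR 0.000867), and Klf10 passed with only the 8 libraries compared (FDR 0.000206) and with DESeq2 on recovered reads (FDR 0.000887).

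Against ESCs, 5 of the 6 members were lower in XGFP+ PGCLCs and none was higher, beside 49.9% of all genes called in either direction (24.9% lower). The log2 fold changes were -2.71 ± 0.40 for Sp5, -1.19 ± 0.09 for Klf3, -0.85 ± 0.12 for Klf6, -0.80 ± 0.10 for Klf10 and -0.57 ± 0.10 for Klf8, with limma FDR from 8.18e-10 to 4.44e-05. Klf13 did not pass, at 0.01 with a 95% interval from -0.17 to 0.18. In XGFP- PGCLCs, 2 of the 6 were called, both lower, beside 59.4% of all genes (29.6% in that direction): Klf3 at -1.78 ± 0.09 (FDR 1.43e-12) and Klf10 at -1.09 ± 0.10 (FDR 2.20e-08). Klf8 was within 95% limits of -0.14 and 0.27 of its ESC level, and Sp5, at -1.53 ± 0.40 (FDR 0.00223), passed without XGFP- library 1 (FDR 0.000822) and with only the 8 libraries compared (FDR 0.000704). These contrasts share their ESC, EpiLC and PGCLC libraries with each other.

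**Figure D2:**
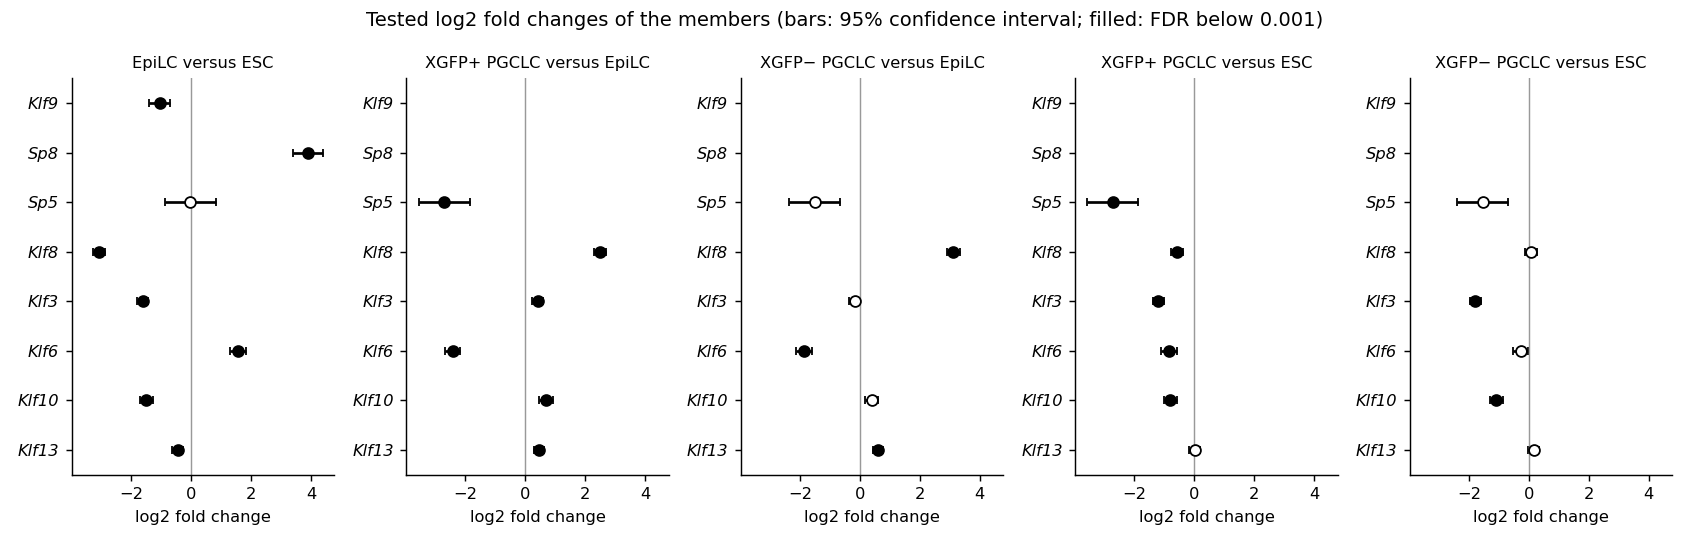
Log2 fold changes (points) with 95% confidence intervals (bars) of the members in the 5 contrasts tested with limma, filled where the FDR was below 0.001; Klf9 and Sp8 are shown for EpiLCs against ESCs alone. Klf8 lies at -3.05 from ESCs to EpiLCs and at 2.49 and 3.12 from EpiLCs to the PGCLC groups, and Klf6 at 1.58, -2.43 and -1.85.

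Between the PGCLC groups, the contrast through which Klf9 and Sp8 were chosen, the values of members are given with no test. Apart from Klf9, Sp8 and Sp5, the log2 differences of XGFP- from XGFP+ PGCLCs were 0.63 for Klf8, 0.57 for Klf6, 0.16 for Klf13, -0.29 for Klf10 and -0.59 for Klf3. The labels were checked against markers: 5 of 5 ESC markers were lower and 5 of 5 EpiLC markers higher in EpiLCs than in ESCs, and 6 of 7 germ cell markers rose from EpiLCs to XGFP+ PGCLCs and 5 of 7 to XGFP- PGCLCs, where Ddx4 fell. Prdm1 and Tfap2c are also transgenes that doxycycline induces, so their rise checks no label, while Dppa3, Nanos3 and Dnd1 rose in both groups and Dazl in XGFP+ PGCLCs. Markers also moved between the PGCLC groups: the summed counts of Zfp42, Esrrb, Tbx3, Tfcp2l1 and Nr0b1 ranged from 44227 to 51349 in XGFP+ and from 24111 to 30858 in XGFP- libraries, with 4 of the 5 genes lower in XGFP- (3 with the replicate number as a block, Tfcp2l1 lost). The summed counts of 7 germ cell markers ranged from 24924 to 29762 and from 21629 to 23953. Of 5 endoderm markers, Sox17, Gata6 and Sox7 were not in the filtered table, and the other 2 summed to 28.7 to 59.3 in XGFP+ and 222 to 314 in XGFP- libraries. That difference was carried by Cubn (means 32.7 and 252), with Foxa2 at 11.8 and 11.97. Of 4 meiotic markers tested, 1 was higher and 2 were lower in the XGFP- group, and of 4 gonadal somatic markers 1, Pdgfra, was lower, a call lost with the replicate number as a block. Over all genes, 23.8% were called between the PGCLC groups. The part of these in the values of the members was not tested, and fewer cells with a transcript cannot be told apart from less of it per cell in bulk RNA.

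Allele-specific reads were available for Klf8 and Klf6. The allelic ratio is the share of reads with a strain-specific base that came from mus, and the number of reads behind it is not given in the sources used here. For Klf8 the ratios in libraries 1 to 4 were 0.264, 0.275, 0.277 and 0.273 in ESCs, and 0.0995, 0.0713, 0.0713 and 0.0521 in EpiLCs. They were 0.157, 0.191, 0.105 and 0.113 in XGFP+ PGCLCs and 0.00603, 0.00700, 0.00868 and 0.00748 in XGFP- PGCLCs. No groups overlapped, and each of the 6 pairs of groups differed with an exact two-sided permutation p of 0.0286, the smallest that 4 against 4 libraries allow (0.0343 after Benjamini-Hochberg adjustment over 12 comparisons). By medians, 4 against 4 libraries cannot go below an exact permutation p of 0.0571, where each of the 6 stood (0.0686 adjusted). By means, the adjusted exact permutation p of XGFP+ PGCLCs against EpiLCs was 0.0686 to 0.103 without XGFP+ library 2 or any 1 EpiLC library. Taken as 4 pairs by replicate number, the PGCLC groups differed with an exact permutation p of 0.125, the smallest that 4 pairs allow. They were sorted on a reporter on X mus, so the direction between them follows from the sort. For comparison, 248 X-linked genes were used, with a mean normalized count above 10 and some mus reads in every ESC library. This filter leaves out genes that could not lie below ESCs, which can raise the shares below ESCs. Genes with no mus reads in another group were kept, which can also stand for no reads at all. Of these genes, 81.9% had XGFP- ratios that lay wholly below those of XGFP+, and 88.3% had XGFP- ratios wholly below those of ESCs. EpiLC ratios lay below those of ESCs for 73.8%, XGFP+ ratios below those of ESCs for 31.5% and above those of EpiLCs for 59.3%, and XGFP- ratios below those of EpiLCs for 63.7%.

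Klf8 leaned towards cas in every group, ESCs included. Its mean ratio of 0.272 in ESCs stood beside a median of 0.461 over the 248 X-linked genes, of which 30 had a lower mean. In XGFP+ PGCLCs it was 0.141 beside a median of 0.391, with 18 genes lower, and in EpiLCs 0.0735 beside 0.211, with 42 lower. In XGFP- PGCLCs the ratio was 0.00730 beside 0.0290, with 92 genes lower. If the allele-specific reads stand for all reads, the normalized count splits into a mus and a cas part. The cas part was 3949.8 ± 695 (SD, n = 4) in ESCs and 598 ± 33.5 in EpiLCs, then 3107 ± 168 in XGFP+ PGCLCs and 5564 ± 283 in XGFP- PGCLCs. The mus part was, in the same order, 1480.4 ± 280.4, 47.3 ± 11.6, 520.3 ± 185 and 40.8 ± 5.46. The cas part alone was thus 6.60 times as high in ESCs as in EpiLCs, and 1.79 times as high in XGFP- as in XGFP+ PGCLCs, while the mus part was 31.3 times as high in ESCs as in EpiLCs.

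Klf6, an autosomal gene, kept ratios near 0.5 to 0.7. The library values were 0.549, 0.579, 0.533 and 0.515 in ESCs, 0.579, 0.572, 0.584 and 0.567 in EpiLCs, 0.601, 0.625, 0.704 and 0.654 in XGFP+ PGCLCs, and 0.601, 0.660, 0.628 and 0.635 in XGFP- PGCLCs. ESC and EpiLC libraries overlapped (exact permutation p = 0.114, adjusted 0.125), as did the PGCLC groups (p = 0.686). Each PGCLC group was above both ESCs and EpiLCs with no overlap (exact permutation p = 0.0286, adjusted 0.0343). By medians each stood at the smallest exact permutation p that 4 against 4 libraries allow, 0.0571 (0.0686 adjusted), so medians could not keep these calls. By means the calls were lost against EpiLCs on leaving out any 1 EpiLC library (exact permutation, adjusted p = 0.0686). They were also lost for XGFP+ PGCLCs against ESCs without ESC library 1, 3 or 4, and for XGFP- PGCLCs against ESCs without XGFP- library 2. On chromosome 13, 280 genes passed the filter used for the X-linked genes, with some mus reads in every ESC library. Their median was between 0.498 and 0.504 in every group. Of them, 254 and 250 had a lower mean than Klf6 in XGFP+ and XGFP- PGCLCs. Groups did not overlap, with the PGCLC group higher, for 13.6% of these genes between XGFP+ PGCLCs and ESCs, for 14.6% between XGFP- PGCLCs and ESCs, for 14.3% between XGFP+ PGCLCs and EpiLCs and for 13.6% between XGFP- PGCLCs and EpiLCs. Both parts of the Klf6 count were highest in EpiLCs, 5576 ± 1255 (SD, n = 4) for mus and 4123 ± 1006 for cas.

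**Figure D3:**
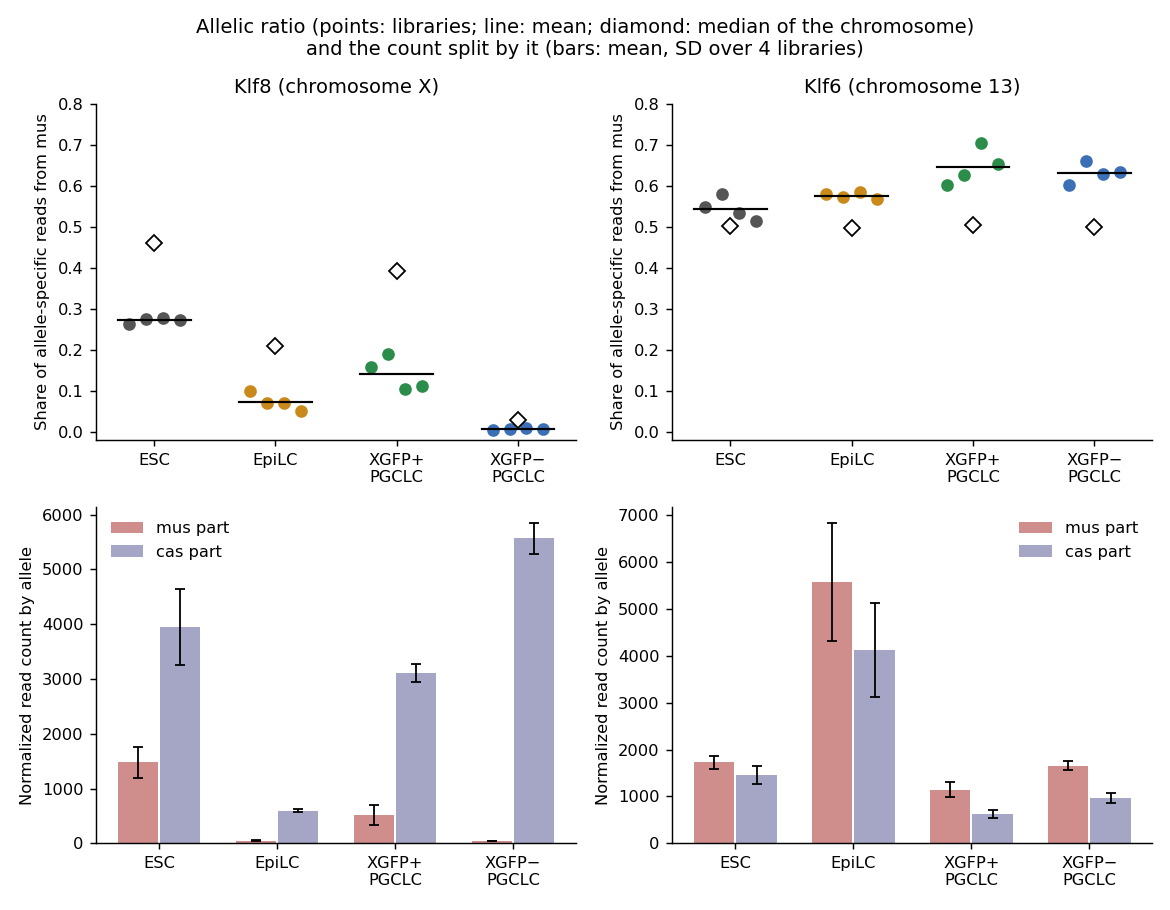
Upper row: allelic ratio of Klf8 and Klf6 in each library (points) with the group mean (line) and the median gene of chromosome X or 13 (diamond). Lower row: normalized count split by the ratio into mus and cas parts, as bars from 0 with the SD over 4 libraries; the cas part of Klf8 is 598 in EpiLCs and 5564 in XGFP- PGCLCs.

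Of the other 18 Klf and Sp genes, 14 were in the bulk table, and none of Klf14, Klf17, Sp7 and Sp9 was. From ESCs to EpiLCs 4 rose and 4 fell with limma, 57.1% of the 14 beside 47.8% of all genes, with a median log2 fold change of -0.15. The naive pluripotency factors Klf4 and Klf2 fell most, with log2 fold changes of -5.58 ± 0.11 (SE, FDR 4.54e-17) and -2.72 ± 0.16 (FDR 3.54e-11). Klf7 rose by 1.99 ± 0.08 (FDR 9.41e-14) and Klf12 by 1.84 ± 0.19 (FDR 8.09e-08). Between XGFP- and XGFP+ PGCLCs 3 of the 14 were called, 21.4% beside 23.8% of all genes: Klf12 at -1.70 ± 0.19 (FDR 8.46e-07), Klf4 at -0.94 ± 0.11 (FDR 2.44e-06) and Klf7 at 0.55 ± 0.08 (FDR 1.21e-05). The median of the 14 was -0.02, beside 0.01 over all genes. With the replicate number as a block Sp6 was called too (-0.81 ± 0.14, FDR 0.000213). Sp1 and Sp3, the ubiquitous members, were not called in that contrast (-0.01 and 0.13).

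Of the corepressors through which the repressive members act, 1 of 6 was called between the PGCLC groups (16.7% beside 23.8% of all genes). Among Sin3a, Sin3b, Ctbp1, Ctbp2, Hdac1 and Hdac2, this was Ctbp2, at -0.28 ± 0.05 (log2, SE, limma FDR 0.000125), with a median of -0.01 for the list. From EpiLCs to both PGCLC groups all 6 were called, 3 higher and 3 lower, beside 57.3% of all genes to XGFP+ and 61.9% to XGFP- PGCLCs. Sin3b rose by 1.59 ± 0.06 to XGFP+ (limma FDR 5.40e-14) and by 1.63 ± 0.06 to XGFP- PGCLCs (FDR 2.35e-14), and Ctbp2 changed by -0.88 ± 0.05 (FDR 1.28e-11) and -1.17 ± 0.05 (FDR 1.97e-13).

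WNT target genes, the pathway of Sp5 and Sp8, were tested for 14 of 16 listed. The list includes Wnt3, Wnt3a and Wnt8a, ligands of the pathway. From ESCs to EpiLCs 9 rose and 2 fell (median 2.41, 78.6% called beside 47.8% of all genes), with the largest increases in Wnt8a, a mesoderm-inducing ligand (8.19 ± 0.42, limma FDR 4.13e-12), and Fgf8 (7.35 ± 0.45, FDR 5.93e-11), while Cdx1 (-4.71 ± 0.23, FDR 2.49e-12) and Notum (-3.84 ± 0.38, FDR 5.64e-08) were lower. Between XGFP- and XGFP+ PGCLCs 5 were higher in the XGFP- group and none lower, 35.7% beside 23.8% of all genes, with a median of 0.76. Lgr5, a receptor for R-spondin, differed by 4.04 ± 0.64 (FDR 4.86e-05) and Rnf43, a negative regulator of WNT receptors, by 2.51 ± 0.21 (FDR 2.56e-08). Lgr5 was rare, with mean normalized counts of 4.6 and 51.4.

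Genes that respond to the nuclear receptors upstream of Klf9, listed with the receptor genes Nr3c1, Thra and Thrb, did not move together. Of the 9 listed, 3 were called higher in XGFP- PGCLCs and 1 was called lower (median 0.21, 44.4% beside 23.8% of all genes). Tsc22d3, a glucocorticoid-induced gene on the X chromosome in mouse, was higher by 3.27 ± 0.21 (log2, SE, limma FDR 1.61e-09) and Hif3a by 1.64 ± 0.13 (FDR 1.18e-08), whereas Fkbp5 was lower, at -0.41 ± 0.07 (FDR 0.000168). From ESCs to EpiLCs 3 rose and 2 fell (55.6% beside 47.8% of all genes). Sgk1 (-1.56 ± 0.13, FDR 3.51e-09) and Fkbp5 (-0.51 ± 0.07, FDR 6.85e-06) fell with Klf9, and Hif3a (2.07 ± 0.13, FDR 5.82e-11) and Nr3c1, the glucocorticoid receptor itself (1.70 ± 0.13, FDR 7.58e-10), rose.

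TGF-beta response genes, the pathway of Klf10, were split as well. From ESCs to EpiLCs 3 of 7 rose and 3 fell (85.7% beside 47.8% of all genes, median -0.12), with Cyr61 at 2.97 ± 0.33 (limma FDR 2.70e-07), Skil at 2.37 ± 0.12 (FDR 6.35e-12) and Smad7 at -1.24 ± 0.09 (FDR 6.98e-10). Between the PGCLC groups 1 was higher and 2 were lower in XGFP- (42.9% beside 23.8% of all genes): Cyr61 was higher (1.68 ± 0.33, FDR 0.00043), and Tgif1 was lower (-0.74 ± 0.07, FDR 2.12e-07). Immediate-early genes, which answer to handling and to cell sorting, were measured beside Klf6 and Klf10. Of 13, 12 were lower in XGFP+ PGCLCs than in EpiLCs and none higher (92.3% beside 57.3% of all genes, median -2.17). Between the PGCLC groups 5 were called higher in XGFP- and none lower (38.5% beside 23.8% of all genes, median 0.50). Jun was higher there by 1.75 ± 0.20 (limma FDR 1.44e-06) and Ier3 by 1.37 ± 0.24 (FDR 0.000123). Their summed counts ranged from 13341 to 19206 in EpiLCs, from 4830.0 to 5166 in XGFP+ and from 5723 to 6268 in XGFP- PGCLCs. ESCs and EpiLCs were not sorted and PGCLCs were, so sorting and cell type cannot be told apart here. Their part in the values of Klf6 was not tested.

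Over the 16 libraries, the 3 genes whose log2 counts followed Klf9 most closely among 11702 genes with a mean count above 100 were Pir on the X chromosome (Pearson r = 0.994), Angptl4 on chromosome 17 (r = 0.994) and Ptprj on chromosome 2 (r = 0.993). Their mean normalized counts were 1324, 823, 182 and 13.53 for Pir in the order ESCs, EpiLCs, XGFP+ PGCLCs and XGFP- PGCLCs, then 602, 484, 218 and 46.8 for Angptl4, and 1921, 1376, 696 and 61.3 for Ptprj. Sp8 was followed by Zfp334 on chromosome 2 (r = 0.985), Bcl6b on chromosome 11 (r = 0.972) and Uvssa on chromosome 5 (r = 0.971). Bcl6b had means of 40.5, 267, 31.7 and 189, and Zfp334 of 507, 1013, 493 and 1035. With 4 groups of libraries these values describe a shared pattern of 4 levels.

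In the rOvaries, PGCLCs had been combined for 6 days with somatic cells from gonads and mesonephros of female E13.5 embryos of CD1/ICR mice. Single cells positive for tdTomato were then sorted by GFP, and the main filters below set no limit on a germ cell marker. XGFP+ constitutive cells descend from XGFP+ PGCLCs, while XGFPhigh, XGFPintermediate and XGFPlow cells descend from XGFP- PGCLCs and were split by the GFP that had returned. After the filters 462 cells of these 4 populations remained, with 6, 19, 16 and 15 wells left out, and all 24 ESCs, which were sequenced on another flow cell. Each population is 1 sorted pool, so no test was made and the intervals are exact binomial intervals over cells. They cover counting error only. The median number of reads per cell was 354149, 636623, 645474 and 640902, and no member had a read in 10 empty wells.

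Klf9 reads were found in XGFP+ constitutive and XGFPhigh cells far more often than in XGFPintermediate and XGFPlow cells, although the last 3 populations share their PGCLC origin. The share of cells with a read was 52.3% (46 of 88 cells, 95% interval 41.4 to 63.04%) in constitutive and 51.2% (64 of 125, 42.1 to 60.2%) in XGFPhigh cells. It was 7.81% (10 cells, 3.81 to 13.9%) in XGFPintermediate and 5.79% (7 cells, 2.36 to 11.6%) in XGFPlow cells, and 95.8% (23 of 24) in ESCs. With every cell thinned to 100000 reads, for which 1 ESC was too shallow, the shares in the 4 rOvary populations were 34.1, 42.4, 7.03 and 4.13%. The summed reads gave 12.4, 16.4, 3.62 and 3.26 CPM (counts scaled to 1e+06 reads), with exact Poisson intervals of 11.2 to 13.7, 15.5 to 17.3, 3.23 to 4.05 and 2.88 to 3.68, and 52.97 CPM in ESCs. With a limit on Dazl modelled on the study's, a natural log of Dazl counts per 10000 reads plus 1 above 1, which keeps 76 constitutive and 91 XGFPlow cells, the shares were 52.6, 49.2, 3.45 and 2.20%, and the CPM of the last 2 populations dropped to 1.04 and 0.487.

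All XGFP+ constitutive cells were sequenced in 1 lane, and the other 3 populations had few cells in that lane. There, Klf9 was read in 52.3% of the 88 constitutive cells, and it was read in 4 of 14 XGFPhigh (28.6%, 95% interval 8.39 to 58.1%), 2 of 16 XGFPintermediate (12.5%, 1.55 to 38.3%) and 0 of 15 XGFPlow cells. For the last, a rough upper limit of 3 counts over 15 cells was 20%, which is not an exact interval. The summed reads went the other way there, at 4.15 CPM in XGFPhigh and 7.60 CPM in XGFPintermediate cells, so that lane gives no order of these 2 populations. XGFPhigh, XGFPintermediate and XGFPlow cells of the other lane gave 54.1, 7.14 and 6.60%. ESC markers moved with Klf9: the 5 genes summed to 824.5 CPM in constitutive and 1186 CPM in XGFPhigh cells, against 189 and 239 CPM in XGFPintermediate and XGFPlow cells and 2053 CPM in ESCs. All 5 were read in every population. Meiotic markers, which accompany entry into meiosis, summed to 1242, 1424, 3973 and 2887 CPM. The median number of genes per cell also differed, at 8226, 8056, 7241 and 7253. The part of these in the Klf9 shares was not tested.

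Sp8 was rare in all 5 populations. It was read in 9.09% of constitutive (8 of 88 cells, 95% interval 4.01 to 17.1%), 8.80% of XGFPhigh (11 of 125, 4.48 to 15.2%), 16.4% of XGFPintermediate (21 cells, 10.5 to 24%) and 16.5% of XGFPlow cells (20 cells, 10.4 to 24.4%), and in 1 of 24 ESCs. These intervals overlap. The level of Sp8 was 0.668, 1.198, 2.01 and 3.11 CPM of summed reads. The exact Poisson intervals were 0.413 to 1.02, 0.973 to 1.46, 1.72 to 2.34 and 2.74 to 3.52. Those of XGFPintermediate and XGFPlow cells lay above the other 2. They treat reads as independent, and the reads came from few cells. Sp5 was read in 51.1, 36.8, 52.3 and 55.4% of cells, at 16.8, 11.7, 26.1 and 31.8 CPM, and in 23 of 24 ESCs.

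Over both lanes together, Klf8, Klf6 and Klf13 were also read more often in constitutive and XGFPhigh cells. For Klf8 the shares were 75% (95% interval 64.6 to 83.6%), 78.4% (70.2 to 85.3%), 49.2% (40.3 to 58.2%) and 38.8% (30.1 to 48.1%), at 53.02, 41.8, 16.9 and 24.3 CPM. For Klf6 they were 84.1, 80, 35.2 and 47.9%, and for Klf13 92.05, 93.6, 68.8 and 77.7%. The level of Klf13 differed less, at 25.6, 23.4, 20.4 and 17.9 CPM. Klf10 and Klf3 did not share this split: Klf10 was read in 76.1, 59.2, 75.8 and 70.2% and Klf3 in 70.5, 56.8, 50.0 and 56.2% of cells. Over all cells kept, the level of Klf6 did not follow the split in shares, at 112.4, 60.2, 55.6 and 53.8 CPM. The highest constitutive cell stood at 2795 CPM. With the limit on Dazl the level of Klf6 did follow the split. It was 67.4 CPM in constitutive and 56.7 CPM in XGFPhigh cells, and 13.1 and 23.4 CPM in the last 2 populations. In the lane that all 4 populations share, the Klf8 shares were 75, 57.1, 75 and 33.3%, so the order of XGFPhigh and XGFPintermediate cells was reversed there, over 14 and 16 cells. Klf6 was read there in 64.3% of XGFPhigh and 56.25% of XGFPintermediate cells. For Klf13 the share there was 87.5% in XGFPintermediate and 66.7% in XGFPlow cells. The gap that sets XGFPintermediate cells apart was thus smaller in that lane for both genes.

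**Figure D4:**
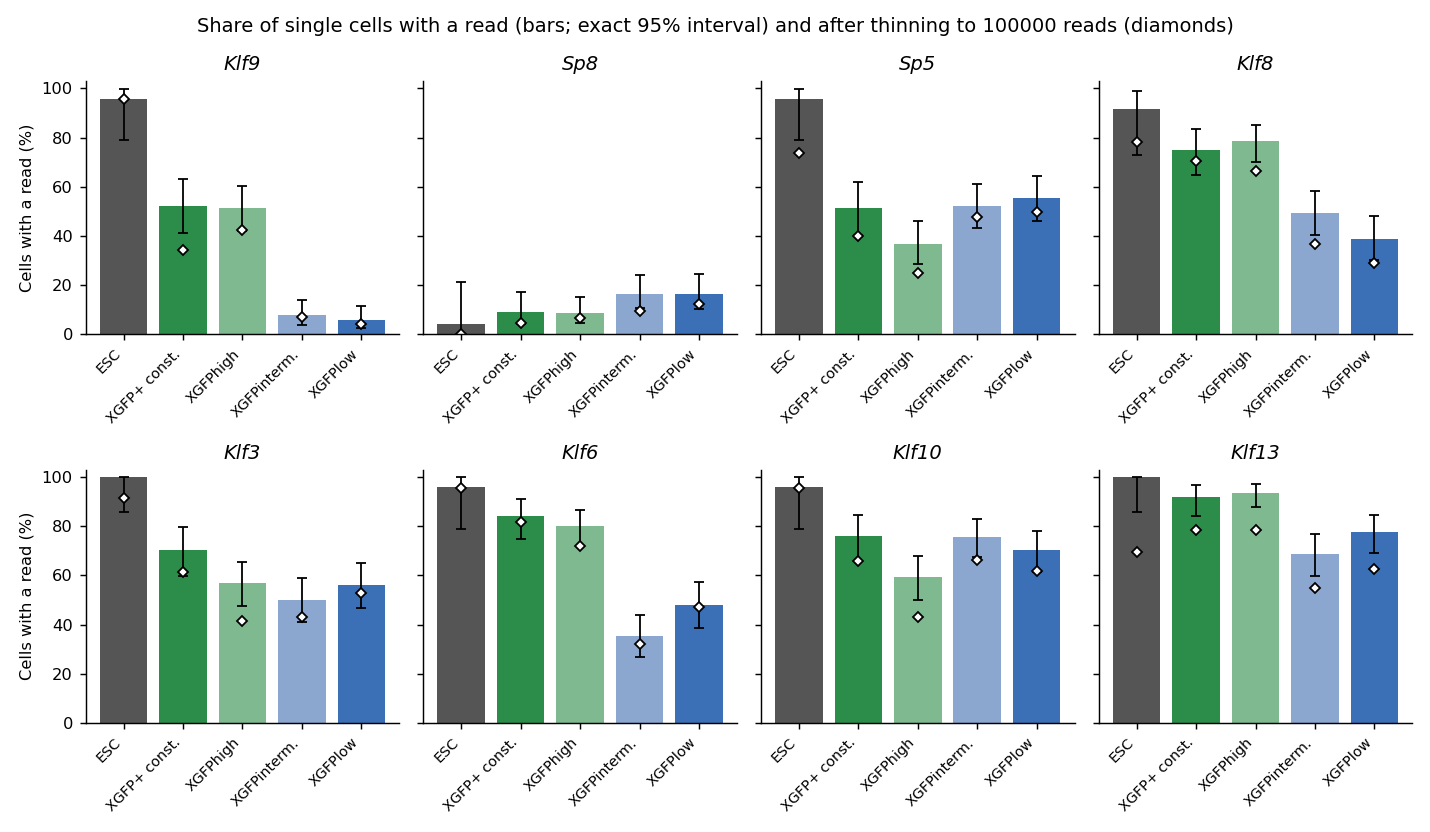
Share of cells with a read (bars from 0, exact 95% interval) in ESCs and the 4 rOvary populations for each gene, and the share after thinning to 100000 reads (diamonds). Klf9 stands at 52.3 and 51.2% in XGFP+ constitutive and XGFPhigh cells and at 7.81 and 5.79% in XGFPintermediate and XGFPlow cells, while Sp8 stays at or below 16.5% throughout.

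Markers of somatic cells were higher in XGFPintermediate and XGFPlow cells, in which Klf9 was read less often. The 8 gonadal somatic genes summed to 2.89, 3.24, 44.8 and 14.6 CPM, with Nr5a1 at or below 0.500 CPM, and the 5 endoderm genes to 7.51, 2.86, 29.8 and 15.8 CPM. Their part in the values of the members was not tested. Germ cell markers summed to 3280, 3111, 4341 and 3314 CPM, with Prdm1 and Tfap2c, also transgenes, among them. ESCs had none of the 8 somatic markers and little of the meiotic ones (15.6 CPM).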

How the data were processed

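Per the labels and the study's methods, total RNA of the bulk libraries was prepared with a stranded kit, so reads of opposite strands could be told apart if the counting used strand, which the sources used here do not state, reads were aligned with STAR to mm10 with strain-specific bases masked, and reads per gene were counted with HTSeq (0.6.1). The deposited bulk values are a signal, counts that the authors divided by a DESeq2 (1.16) size factor per library, and the deposited allelic ratio is the fraction of strain-specific reads from mus. The deposited single-cell values are raw counts of reads per gene and well, with no molecular identifiers, so reads are not independent molecules and intervals cover counting error only. The number of reads behind an allelic ratio is not given in the sources used here, and a ratio of 0 can also stand for no reads. The 4 NPC columns of another study were not used.

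Whole reads could be recovered from the bulk values (100% of values lay within 0.1 of a whole read) and ranged from 29778299 to 46533858 per library. Within a group libraries differed by more than sampling noise (chi-square per gene 8.24 to 41.65), so none was counted as a repeat deposit of another, which does not tell technical replicates from separate cultures. The main test was limma (3.58.1, R 4.3.3) on log2(normalized count + 1) with a trend, for all 16 libraries in 1 model, a mean above 10 and Benjamini-Hochberg FDR below 0.001 over 16281 genes. Fold changes are on that scale and understate the change of low genes. Intervals of fold changes are limma's at 95%. edgeR (4.0.16) and DESeq2 (1.42.0) were run on the recovered reads as alternatives, and the fits were checked on simulated data. Other settings were pseudocounts of 0.5 and 10, a mean above 100 or no filter, quantile normalization, only the 8 libraries compared, a fold limit, each library left out, and the replicate number as a block.

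The labels number the libraries of each group 1 to 4. Deviations from the group mean correlated between same-numbered XGFP+ and XGFP- PGCLC libraries (r from 0.135 to 0.307), so numbers pair these 2 groups, and not all other groups (r from -0.0105 to 0.160). Allelic ratios were compared by exact permutation of 4 against 4 libraries, adjusted over 12 comparisons. Cells were kept from 4000 genes and 10000 reads upwards if no more than 5% of reads were mitochondrial, without a Dazl limit. A natural log of Dazl counts per 10000 reads plus 1 above 1 was an alternative, and the log base of the study's own limit was not settled here. Each population is 1 pool, so cells were described and not tested. No 2 wells held the same counts, doublets were not called because cells were sorted singly, and thinning to 100000 reads was added after seeing the data.

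The members and all gene lists were chosen with earlier results of these data known. All 8 members were reported. For each other list its counts and its median were given, and by name as a rule no more than the 2 called genes that rose most and the 2 that fell most. Outside that rule, Sp1, Sp3 and Sp6 were named after their values were seen. Cell type markers, the contents of lists, and Skil and Fosb, which gained a call with the replicate block, were also named outside it. Genes of most similar pattern were the 3 with the highest Pearson r. Promoters came from RefSeq (GRCm38.p6), and gene positions from GENCODE on mm10. Protein sequences were not used here. The values of 1 gene of the TGF-beta list are not reported here.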

Additional observations from a re-analysis of the deposited data

How the results depend on the processing

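Of the counts, allelic differences and single-cell shares behind the comparisons, 154 values under other settings were rated the same. Of the rest, 8 moved, 4 lost and 1 gained their call. Of the other values, such as those of single genes, 1007 were rated the same, 32 moved, 48 lost and 9 gained a call. Allelic differences and single genes were rated by direction and side of the threshold. Counts of called genes were rated by closeness to the main count, and single-cell shares by lying inside their main interval. For counts and shares the rating thus checks no direction or threshold. No called value changed sign. With an absolute log2 fold change above 1, 3 members were called from EpiLCs to XGFP+ PGCLCs, 2 from ESCs to XGFP+ PGCLCs (beside 4947 and 4030 of 16281 genes), and 1 other Klf or Sp gene between the PGCLC groups (beside 1821). Leaving out 1 library gave 7 members called from ESCs to EpiLCs, 5 to 6 and 3 to 4 from EpiLCs to XGFP+ and XGFP- PGCLCs, 5 and 2 to 3 from ESCs to these, and 3 to 4 other Klf and Sp genes. With the replicate block, calls over all genes went from 3873 to 4170 between the PGCLC groups, and no call of a member changed. Between these groups Sp6, Skil and Fosb gained a call with it and Tfcp2l1 and Pdgfra lost one.

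By medians, the Klf8 allelic ratio differed by -0.203 between EpiLCs and ESCs and by -0.128 between XGFP- and XGFP+ PGCLCs. Both had an exact permutation p of 0.0571 (0.0686 adjusted), the smallest that medians of 4 against 4 libraries allow. As a replicate block, 4 pairs cannot go below an exact p of 0.125, and the differences were -0.199 and -0.134. Without 1 library they ranged from -0.207 to -0.192 and from -0.146 to -0.118. The Klf6 difference between EpiLCs and ESCs ranged from 0.0216 to 0.0431, the latter without ESC library 2 (exact permutation, adjusted p = 0.0312), and between the PGCLC groups from -0.0297 to 0.0045. The PGCLC groups against EpiLCs or ESCs stood at that same smallest value by medians for Klf6 and Klf8 (exact permutation, adjusted p = 0.0686). Without any 1 EpiLC library XGFP+ PGCLCs against EpiLCs had 0.0686 for Klf6 and 0.0686 to 0.103 for Klf8, by the exact test on means. The causes were not tested.

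The Klf9 share was 34.1% in XGFP+ constitutive cells thinned to 100000 reads. In the lane with all populations it was 28.6% in XGFPhigh and 0% in XGFPlow cells. With the Dazl limit it was 3.45% in XGFPintermediate and 2.20% in XGFPlow cells. These rest on 1 pool per population. The depth of allelic ratios is unknown.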
